A study of Ovis aries with 16 samples.

Results

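The miR-200 family was examined in testis of sexually mature Merino males. Members were taken by name, as all miRNAs whose identifier starts with oar-miR-200. Of the 3 names sought, oar-miR-200a and oar-miR-200b were among the 271 miRNAs listed (103 known and 168 predicted), and oar-miR-200c was not analysed here. Small RNAs were sequenced in 1 library per male from 8 males fed for a gain in body mass of 10% and 8 fed for a change of -10% over 65 days, called well-fed and underfed. Both groups had eaten the same ration before the treatments began, and the RNA came from whole tissue of the right testis.

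MicroRNAs of the miR-200 family are abundant in epithelial cells, where they repress the transcription factors ZEB1 and ZEB2 and so help to maintain E-cadherin and cell-to-cell junctions. In mammals the family is made from a pair of gene clusters, one with miR-200b, miR-200a and miR-429 and the other with miR-200c and miR-141. The family has a pair of seeds, the bases at the start of a miRNA that recognise a target. One seed is shared by miR-200a and miR-141, and the other by miR-200b, miR-200c and miR-429. In RefSeq's sheep gene table (assembly ARS-UI_Ramb_v3.0, not the build used by the study), MIR200A and MIR200B were immediate neighbours between TTLL10 and C12H1orf159, and MIR200C lay apart from them, next to PTPN6. Among the predicted miRNAs, candidate-miR-95 and candidate-miR-98 were paired by the study with miR-141 and miR-429 (predicted miRNAs are given here as candidate-miR with the number of the study). They are given below as relatives of the 2 members.

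Expression was measured as CPM, reads of a miRNA per 1000000 reads of all miRNAs in the library. Low CPM values rose in steps of 1 read, so the reads behind each value could be recovered. Libraries held between 17163 and 503916 miRNA reads in well-fed males and between 27797 and 1058985 in underfed males. In 3 libraries, those of well-fed replicate 5 and underfed replicates 6 and 8, there were fewer than 100000. The 3 miRNAs that mark meiotic and later germ cells (the miR-34b, miR-34c and miR-449a homologues) together reached 47497 to 71079 CPM in males that were well-fed and 10978 to 58155 CPM in those underfed, so the markers of the labelled tissue were present in each library.

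Both members were rare. Of 6558715 miRNA reads in the 16 libraries, 165 were oar-miR-200a and 63 were oar-miR-200b. In pooled reads this is 25.2 CPM for oar-miR-200a (95% Poisson interval 21.5 to 29.3) and 9.61 CPM for oar-miR-200b (7.38 to 12.3). These intervals cover counting error only and leave out the spread between males. They also treat reads as independent molecules, which reads made by PCR are not. By abundance, oar-miR-200a ranked between 129 and 227 of the 271 miRNAs and oar-miR-200b between 166 and 267.

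Expression of oar-miR-200a was above 0 in all 16 males. The values in well-fed replicates 1 to 8 were 15.7, 11.4, 31.97, 18.01, 58.3, 19.3, 9.92 and 27.8 CPM. These rested on 4, 4, 6, 6, 1, 7, 5 and 6 reads. The highest value was therefore 1 read of a library with few reads, and its 95% Poisson interval ran from 1.48 to 325 CPM. In underfed replicates 1 to 8 the values were 26.8, 15.7, 39.7, 62.3, 11.7, 36.0, 10.7 and 79.8 CPM. These rested on 4, 15, 42, 45, 4, 1, 11 and 4 reads. Underfed replicates 3 and 4 held 87 of the 126 reads of oar-miR-200a in underfed males. The ranges of the diets overlapped, and underfed replicates 2, 5 and 7 lay below the well-fed median of 18.7 CPM.

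Expression of oar-miR-200b was lower than that of oar-miR-200a in most males and was listed at 0 in 5. In well-fed replicates 1 to 8 the values were 3.92, 0, 5.33, 3.002, 0, 11.0, 9.92 and 0 CPM, with 1, 0, 1, 1, 0, 4, 5 and 0 reads. In underfed replicates 1 to 8 they were 6.71, 9.45, 19.8, 15.2, 11.7, 0, 4.86 and 0 CPM, with 1, 9, 21, 11, 4, 0, 5 and 0 reads. Underfed replicates 3 and 4 had the highest values of oar-miR-200b, whereas oar-miR-200a was highest in underfed replicate 8, from 4 reads. With 3 reads as the limit that a count of 0 allows (the Poisson intervals reach 3.69 reads), the level could be up to 108 and 59.9 CPM in underfed replicates 6 and 8, more than any value seen in the other libraries. In well-fed replicates 2, 5 and 8 the same limit is 8.52, 174.8 and 13.9 CPM. Whether oar-miR-200b was absent from these 5 males could not be seen at this depth.

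**Figure D1:**
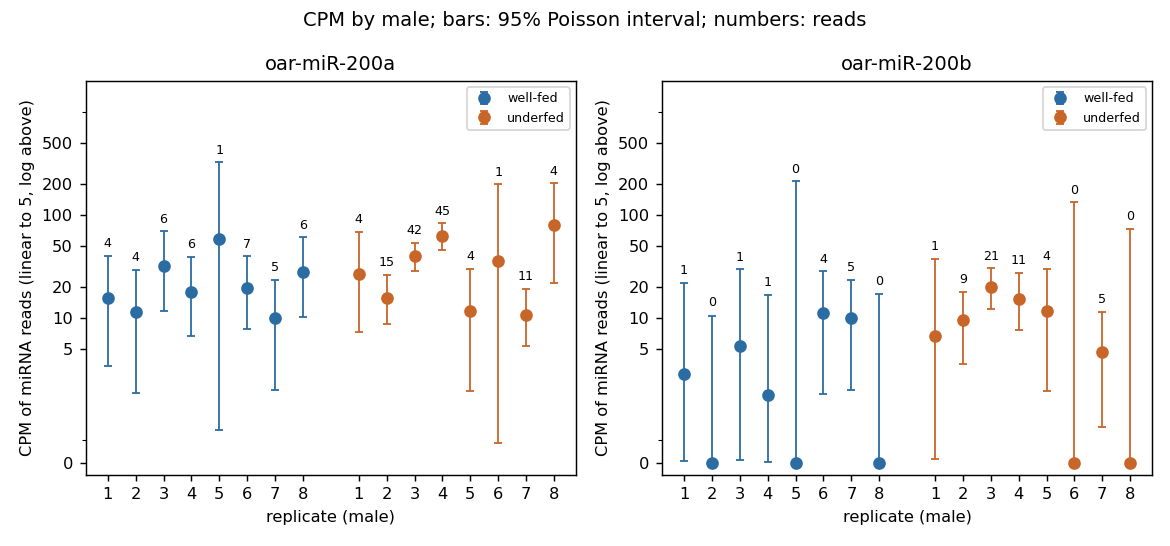
CPM of oar-miR-200a (left) and oar-miR-200b (right) in each male, well-fed in blue and underfed in orange, on a vertical axis that is linear up to 5 CPM and logarithmic above. Bars are 95% Poisson intervals and the numbers are reads; the narrowest intervals of oar-miR-200a belong to underfed replicates 3 and 4, with 42 and 45 reads.

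The question put to these values was whether the diets differed. For oar-miR-200a, mean expression was 24.0 ± 15.8 CPM (SD) when males were well-fed and 35.3 ± 24.9 CPM when they were underfed (n = 8 per diet). The ratio of these means, underfed over well-fed (FC), was 1.47. After TMM normalization, a factor per library that aligns most miRNAs between libraries, the log2 fold change on log2(CPM + 1) was 0.88 (standard error 0.52, 95% interval -0.20 to 1.96, FDR 0.292, limma). For oar-miR-200b the means were 4.15 ± 4.40 CPM (SD) and 8.47 ± 7.03 CPM (n = 8 per diet), an FC of 2.04. The log2 fold change by limma was 1.17, with a standard error of 0.83, a 95% interval of -0.55 to 2.89 and FDR 0.378. Differential expression (DE) required an FDR under 0.05 with FC under 0.67 or above 1.5. By this test neither difference had an FDR under 0.05, and each interval includes both no change and a 3-fold higher level in underfed males.

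Of the 2 members, 0 were DE, and 0 had an unadjusted p under 0.05 by limma. Among all 244 miRNAs tested, 8 were DE (3.28%), 2 of them higher in underfed males (0.82%), and 15 had an FDR under 0.05 (6.15%). An unadjusted p under 0.05 was found for 63 (25.8%), of which 35 were higher in underfed males (14.3% of those tested). The median log2 fold change of the 244 was -0.08, and 115 of them were above 0. There were 17 with a log2 fold change at or above that of oar-miR-200a, counting itself, and 6 at or above that of oar-miR-200b.

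**Figure D2:**
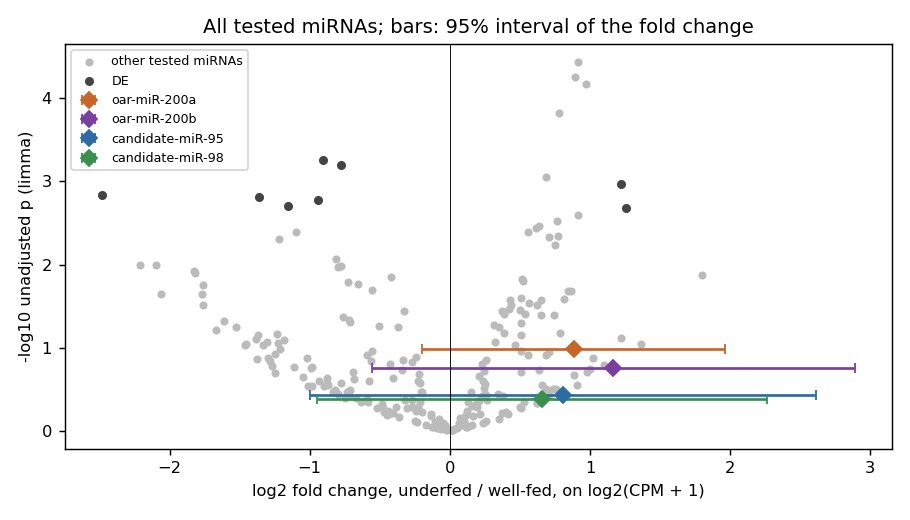
Log2 fold change (underfed over well-fed, horizontal) against -log10 of the unadjusted limma p (vertical) for the 244 tested miRNAs, with the 8 DE miRNAs in dark grey. Horizontal bars are 95% intervals of the 2 members and the 2 relatives; each of these 4 bars crosses 0.

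A count model gave another call. The edgeR quasi-likelihood test on recovered reads, chosen after seeing the data, gave oar-miR-200a a log2 fold change of 1.21 with FDR 0.0348, and oar-miR-200b one of 1.58 with FDR 0.0320. With the FC threshold, oar-miR-200b was DE by this test and oar-miR-200a, at FC 1.47, was not. The same test called 23 of the 244 miRNAs DE, and 47 had an FDR under the threshold. The study had also compared the diets with edgeR. In its own values both members were higher in underfed males and lay just above the FDR threshold, so neither passed it. Its fold changes of both members were larger than the FC found here. The cause of these differences from the study was not tested.

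Leaving out the libraries with few reads changed the log2 fold change of oar-miR-200a little and raised that of oar-miR-200b. In the 13 libraries above 100000 miRNA reads, the 7 well-fed males had 19.2 ± 8.15 CPM (SD) of oar-miR-200a and the 6 underfed males 27.8 ± 20.2 CPM. Its log2 fold change there was 0.80, with FDR 0.153 (limma). For oar-miR-200b the values were 4.75 ± 4.39 and 11.3 ± 5.56 CPM (SD, n = 7 and 6). Its log2 fold change rose to 1.87 with FDR 0.0464 (limma) and FC 2.38, so that oar-miR-200b was DE, with 25 of the 244 miRNAs. Of these males, 2 that were well-fed and 0 that were underfed had oar-miR-200b at 0.

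Underfed replicates 3 and 4 were singled out for their many reads of the members. These males held 69.0% of the oar-miR-200a reads and 62.7% of the oar-miR-200b reads of underfed males, against 41.1% of all underfed miRNA reads. A smaller difference without them follows from that choice, so the next values are a description. Without both males, a step chosen after seeing the data, the log2 fold changes were 0.51 for oar-miR-200a (FDR 0.650, limma) and 0.58 for oar-miR-200b (FDR 0.718, limma), with FC 1.25 and 1.31. Pooled reads gave 17.5 CPM of oar-miR-200a in well-fed males (95% Poisson interval 12.5 to 23.9) and 29.1 CPM in underfed males (24.2 to 34.6). The other 6 underfed males pooled to 15.3 CPM (10.9 to 20.9), a value in which the deeper libraries weigh most, whereas their unweighted mean was above the well-fed mean (FC 1.25). For oar-miR-200b the pooled values were 5.39 CPM in well-fed (2.78 to 9.41), 11.8 CPM in underfed (8.77 to 15.5) and 7.45 CPM in the other 6 underfed males (4.48 to 11.6).

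The spread between males of 1 diet was set against counting error. The chi-square of the reads of oar-miR-200a about a common rate, divided by its degrees of freedom, was 1.10 among well-fed males and 8.20 among underfed ones. A value of 1 is what counting error alone gives on average. For oar-miR-200b the values were 1.10 and 1.77. The well-fed libraries held fewer reads, and a spread between males is harder to see with fewer reads, so these values are a description and the difference between diets was not tested.

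The members were also compared with each other by reads. Reads of different miRNAs are not captured equally by adaptor ligation, so these are shares of reads and not of molecules. Reads of oar-miR-200a were at least as many as those of oar-miR-200b in all 16 males, and equal in well-fed replicate 7 and underfed replicate 5. Of the reads of both, oar-miR-200b made up 23.5% in well-fed males (12 of 51 reads, exact 95% interval 12.8% to 37.5%) and 28.8% in underfed males (51 of 177 reads, 22.3% to 36.1%). These intervals pool the reads of males and cover counting error only, and underfed replicates 3 and 4 supplied most of the underfed reads. Per male, the mean log2 ratio of oar-miR-200a to oar-miR-200b (each CPM + 1) was 2.69 ± 1.997 (SD, well-fed) and 2.25 ± 2.28 (underfed, n = 8 per diet). It was 2.23 ± 1.64 (n = 7) and 1.08 ± 0.74 (n = 6) in the 13 libraries with more reads. The difference between diets in this ratio was not tested.

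The values of the members were also set against each other from male to male. Over the 16 males, Pearson's r between them on log2(CPM + 1) was -0.27 (permutation p = 0.316, adjusted over 6 pairs 0.760) and Spearman's rho was -0.11 (permutation p = 0.678, adjusted 0.813). Without the 2 males farthest from the median of oar-miR-200a, r was -0.30. In the 13 libraries with more reads r was 0.26 (permutation p = 0.396). Within each diet, over 8 libraries, r was -0.39 (well-fed) and -0.33 (underfed). In the libraries with more reads it was -0.09 for the 7 well-fed males and 0.66 for the 6 underfed males, so the sign among underfed males turned with depth. Over the 16 males and over the 13 libraries with more reads, a relation between the members was not detected. Each library held few reads of both, and whether this hid a relation was not tested.

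The relatives were as rare. For candidate-miR-95, the miR-141 homologue, the means were 13.9 ± 18.6 CPM (SD, well-fed) and 22.8 ± 35.1 CPM (underfed), from 18 and 53 reads (n = 8 per diet). By limma its log2 fold change was 0.81, with a standard error of 0.87 and FDR 0.558. For candidate-miR-98, the miR-429 homologue, they were 11.9 ± 18.9 and 14.7 ± 14.7 CPM (SD), from 12 and 43 reads. By limma its log2 fold change was 0.66, with a standard error of 0.77 and FDR 0.594. Underfed replicate 4 held 19 of these 43 reads. Well-fed replicate 5, with 1 read of each, raised both well-fed means, which were 7.56 CPM for candidate-miR-95 and 5.32 CPM for candidate-miR-98 without it. Neither relative was DE by limma, in all libraries or in the 13 with more reads. By edgeR the FDR was 0.0989 for candidate-miR-95 and 0.0628 for candidate-miR-98 in all libraries. In the 13 libraries with more reads it was 0.0845 and 0.0472, and there candidate-miR-98 was DE with FC 2.56, among 27 of the 244 miRNAs. In these libraries, underfed replicates 1 and 4 had 33.5 and 26.3 CPM of candidate-miR-98. Underfed replicates 2, 3, 5 and 7 had 7.35, 4.72, 5.83 and 3.89 CPM, beside 1.98 to 9.01 CPM in the well-fed males.

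**Figure D3:**
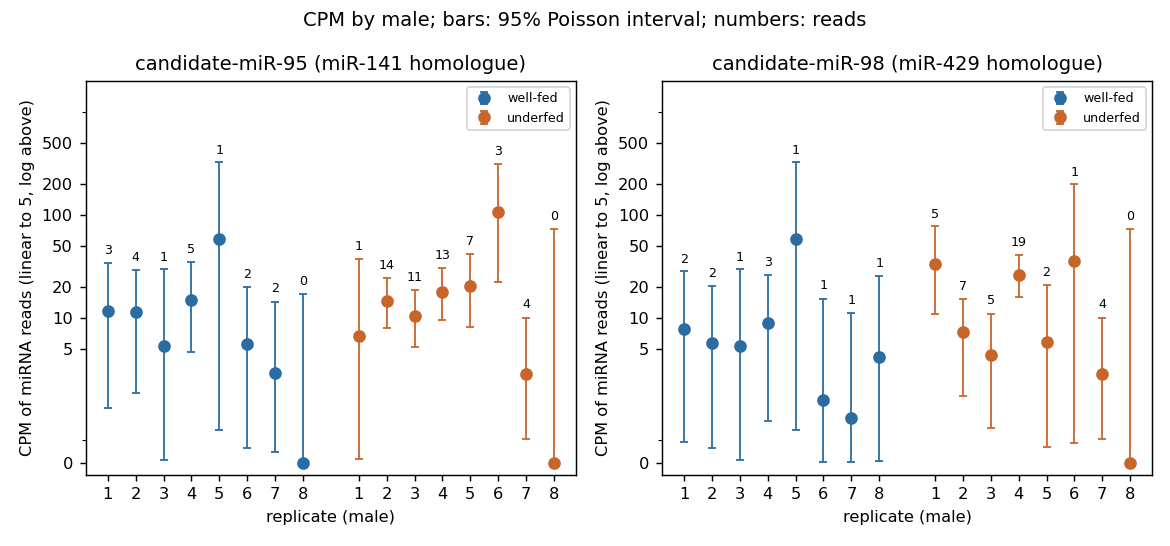
CPM of candidate-miR-95 (left) and candidate-miR-98 (right) in each male, well-fed in blue and underfed in orange, on the same axis as for the members, with 95% Poisson intervals and the number of reads. The highest points, 108 CPM of candidate-miR-95 in underfed replicate 6 and 58.3 CPM of both in well-fed replicate 5, rest on 3 reads and 1 read.

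All 4 family miRNAs thus had a log2 fold change above 0 by limma, as did 115 of all 244 miRNAs tested. Together they had 81 reads in well-fed and 273 in underfed males. Pooled, this is 36.4 CPM (95% Poisson interval 28.9 to 45.2) and 63.0 CPM (55.8 to 71.0). These intervals pool the reads of males and leave out the spread between males. Underfed replicates 3 and 4 supplied 79 and 88 of the 273 reads. The relatives varied together over the 16 males, with r = 0.76 (permutation p = 0.00107, adjusted over 6 pairs 0.00642). In the 13 libraries with more reads r was 0.38 (permutation p = 0.199, adjusted 0.397). Spearman's rho was 0.83 in the 16 and 0.70 in the 13. Both miRNAs of a point share the depth of its library.

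Other miRNAs known from epithelia were set beside the members. Of 10 such miRNAs named, the homologues of miR-183, miR-192, miR-215 and miR-31, and oar-miR-194, were listed and tested. Of these 5, 0 were DE and 1 had a log2 fold change above 0. Their median log2 fold change was -0.05, against -0.08 for all tested miRNAs, with values from -0.68 for candidate-miR-39 (the miR-215 homologue) to 0.11 for candidate-miR-115 (the miR-183 homologue). Without TMM they ran from -1.15 (miR-215 homologue) to -0.24 (miR-183 homologue), beside a median of -0.51 for all tested miRNAs. With miRNAs and piRNAs normalized together they ran from 0.25 (miR-215 homologue) to 0.92 (miR-31 homologue), beside a median of 0.81. The miR-192 homologue had an FDR of 0.0485 without TMM and 0.0149 with both classes together (limma). The summed level of the 5 was 5084 to 6541 CPM per well-fed male and 2839 to 6080 CPM per underfed male. Most of it was the homologue of miR-192, with 4660 ± 435 CPM (SD, n = 8 well-fed males). In underfed replicates 3 and 4, with the most reads of both members, the sum was 2942 and 4178 CPM. Of the names miR-203, miR-205, miR-96, miR-182 and miR-375, none was matched, and they were not analysed here.

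Markers of other cells were set beside the members. Both smooth muscle miRNAs, oar-miR-143 and the miR-145 homologue, had an unadjusted p under 0.05 with log2 fold changes of 0.52 and 0.62, beside 25.8% of all tested miRNAs, and 0 were DE. Without TMM these values were 0.05 and 0.15, with unadjusted p of 0.754 and 0.574 by limma. Of 7 miRNAs of blood and immune cells, 6 were above 0, beside 115 of all 244 tested. Of these 7, 0 were DE and the median log2 fold change was 0.25. Without TMM they ran from -0.68 (the miR-486 homologue) to 0.09 (the miR-146b homologue), and all but the latter were below 0. The median of all tested miRNAs was then -0.51. Of 3 miRNAs of striated muscle, 3 were above 0, 0 were DE and the median was 0.76. They were oar-miR-133 (well-fed mean 534 CPM), another miR-133 homologue (8.76 CPM) and the miR-1 homologue (12.2 CPM). Without TMM the values ran from 0.04 (oar-miR-133) to 0.55 (the miR-1 homologue). Of the 3 germ cell miRNAs, 3 were below 0 and 2 were DE, beside 3.28% of all tested miRNAs, with a median of -0.80. Without TMM the homologues of miR-34b, miR-34c and miR-449a were at -1.27, -1.38 and -1.25. With miRNAs and piRNAs normalized together they were at 0.15, 0.05 and 0.18, with FDR of 0.660 or above (limma). The median of all tested miRNAs was then 0.81. The summed level of the germ cell miRNAs was 19336 and 21570 CPM in underfed replicates 3 and 4. In underfed replicates 1, 2, 5, 6, 7 and 8 the sums were 44629, 10978, 21706, 21441, 19832 and 58155 CPM. There oar-miR-200a was at 26.8, 15.7, 11.7, 36.0 (1 read), 10.7 and 79.8 CPM (4 reads). In whole testis, fewer cells of a type and less RNA per cell cannot be told apart, and the part of cell composition in the values of the members was not tested.

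The size of the difference changed with the scale chosen between libraries. TMM factors were 1.08 to 1.39 for well-fed libraries and 0.70 to 1.26 for underfed ones. Without TMM the median of all tested miRNAs was -0.51, and the log2 fold changes were 0.43 for oar-miR-200a (FDR 0.608, limma) and 0.87 for oar-miR-200b (FDR 0.494, limma). When miRNAs and piRNAs were normalized together, the median of all tested miRNAs moved to 0.81. The log2 fold changes were then 1.72 for oar-miR-200a (FDR 0.0156, limma) and 1.55 for oar-miR-200b (FDR 0.0866, limma), and FC from joint CPM was 2.56 and 3.52. Of all 244 miRNAs tested, 85 had an FDR under 0.05 on this joint scale. The members were above the median of all tested miRNAs on each of these 3 scales. The split of DE miRNAs into higher and lower in underfed males was 2 and 6 with TMM, 0 and 36 without it, and 60 and 0 with joint normalization.

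**Figure D4:**
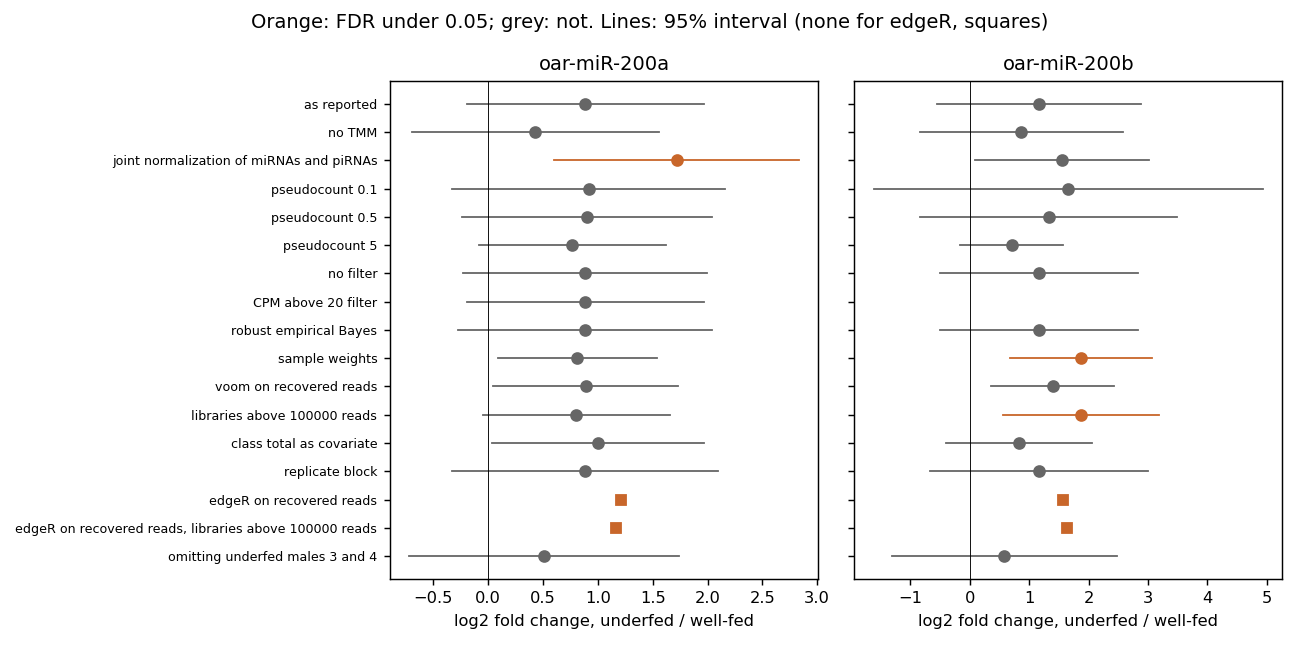
Log2 fold change of oar-miR-200a (left) and oar-miR-200b (right) under each way of processing the values (rows), with 95% intervals as lines (none for edgeR) and FDR under 0.05 in orange. Every point lies above 0, from 0.43 to 1.72 for oar-miR-200a and from 0.58 to 1.87 for oar-miR-200b; oar-miR-200b has no point where the filter asked for CPM above 20.

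The 5 tested miRNAs whose pattern was most like the mean of the members were candidate-miR-134, the miR-342 homologue (r = 0.68), oar-miR-23a (0.66), oar-miR-152 (0.65), oar-miR-30c (0.65) and oar-miR-376e-3p (0.64). Pearson's r was taken over 16 males on log2 values after subtraction of each diet mean, among 242 miRNAs, and the points share library depth and TMM factors. In the 13 libraries with more reads the values were 0.52, 0.62, 0.69, 0.77 and 0.59. The relatives ranked 154 and 168 in this order, with r = 0.06 for candidate-miR-95 and 0.00 for candidate-miR-98 over 16 males. In the 13 libraries with more reads r was 0.26 and -0.03.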

How the data were processed

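Per the labels and methods, the authors demultiplexed reads with CASAVA 1.8, removed adaptors and other RNA classes, and took miRNAs from the shorter reads, known ones by miRBase and predicted ones by miRDeep2 on Oar_v3.1. The deposited signal is the authors' CPM, scaled to 1000000 separately for miRNAs and for piRNAs. In each library 93.7% to 99.0% of low miRNA values were whole multiples (tolerance 0.1) of the value of 1 read, from which reads were recovered and rounded for edgeR. A floor of 3 reads is 0.000283% to 0.0175% of a library's miRNA reads.

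The diets were compared with limma 3.58.1 (R 4.3.3, trend) on log2(CPM + 1) after TMM (edgeR 4.0.16), over the 244 miRNAs that exceeded 5 CPM in 8 or more of the 16 libraries, with Benjamini-Hochberg FDR. The test was also run on simulated data. Correlations had 100000 permutations (scipy 1.17.1, two-sided), and intervals are Poisson or exact binomial. Alternatives changed the scaling, pseudocount, filter, weights, count model, depth, replicate block and males included. The members and lists were chosen with earlier results of these data known. Named are the members, their 2 relatives, members of the cell type lists and the 5 miRNAs with the most similar pattern.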

Additional observations from a re-analysis of the deposited data

Results flagged for a closer look

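In groups of 8 males, a value was set apart when its gap to the nearest other value, divided by the range of the group, was above Dixon's 95% critical value. For normally distributed values of equal spread, chance does this in about 1 in 20 groups, and 8 groups were looked at. CPM from few reads in libraries of unequal depth do not meet that condition, so the rate does not apply to these values. Well-fed replicate 5 stood above the other well-fed males for oar-miR-200a (58.3 CPM), candidate-miR-95 (58.3 CPM) and candidate-miR-98 (58.3 CPM), each from 1 read. Underfed replicate 6 stood above the other underfed males for candidate-miR-95 (107.9 CPM), from 3 reads. Both are libraries with fewer than 100000 miRNA reads.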

How the results depend on the processing

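In 32 alternatives for oar-miR-200a and 31 for oar-miR-200b the log2 fold change stayed above 0, from 0.43 to 1.72 and from 0.58 to 1.87, while FDR crossed 0.05 in 3 and 4 of them. For oar-miR-200a these were joint normalization (1.72), edgeR (1.21) and edgeR on the 13 libraries above 100000 reads (1.17). For oar-miR-200b they were sample weights (1.87), the 13 libraries with limma (1.87), edgeR (1.58) and edgeR on the 13 libraries (1.63). Among all 244 tested miRNAs, 85 had an FDR under 0.05 with joint normalization and 98 with sample weights. In the 13 libraries 43 did with limma and 52 with edgeR, and in all libraries 47 did with edgeR. Of the members, 1 was DE in each of joint normalization, sample weights, the 13 libraries with limma, edgeR and edgeR on the 13 libraries. The count of all DE miRNAs moved from 8 to 36 without TMM, 60 with joint normalization, 52 with sample weights, 26 with voom, 25 in the 13 libraries, 18 with the class total as a covariate, 15 with FDR alone, 15 with FC from TMM-scaled CPM, 23 with edgeR, 27 with edgeR on the 13 libraries and 2 without underfed replicates 3 and 4. With each male left out, it ranged from 0 (limma, without well-fed replicate 2 or 8, where 57 and 50 had an unadjusted p under 0.05) to 21 (without underfed replicate 1), and 0 members were DE in any of these 16 fits, which gave log2 fold changes of 0.65 to 1.08 for oar-miR-200a and 0.88 to 1.57 for oar-miR-200b. The cause of these moves was not tested. Same-numbered males of the diets did not deviate together (mean correlation 0.05, from -0.18 to 0.28, own partner best for 2 of 8 numbers). With the replicate number as a block there were 7 DE miRNAs, and log2 fold changes were 0.88 and 1.17 with FDR 0.351 and 0.399 (limma). With a filter of CPM above 20, oar-miR-200b was not tested. Depth limits both members, at 1 to 45 reads of oar-miR-200a and 0 to 21 of oar-miR-200b per library.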
